A study of Mus musculus with 12 samples.

Results

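The genes of the mitochondrial ribosomal proteins were taken as all gene symbols that begin with Mrpl or Mrps followed by a digit, with the transcript of the highest total count standing for a symbol with several. These were 77 of 24421 symbols, 48 named for the large subunit (Mrpl) and 29 for the small subunit (Mrps). The mitochondrial ribosome is built of RNA encoded in mitochondrial DNA and of proteins that are encoded in the nucleus, made in the cytosol and imported. It translates the mitochondrial mRNAs, whose products are subunits of the respiratory chain and ATP synthase, on which the proximal tubule of the kidney depends. Many of its proteins have a counterpart in bacterial ribosomes, and others were added in the mitochondrial lineage.

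RNA-seq libraries from the kidneys of 12 male C57BL/6 mice labelled as 6 weeks old were compared, 1 library per mouse and 3 per group. Baseline mice were healthy controls without an operation, either WT or Tet2-/-, and IR mice of both genotypes had renal ischemia-reperfusion by clamping of the right renal pedicle and removal of the left kidney, with tissue taken the day after. An IR effect here therefore includes the operation and the loss of the other kidney. The Tet2-/- mice were bred from Tet2+/- pairs, so blood cells carry the deletion as kidney cells do. In the data, Tet2 was at 9.15, 6.25 and 7.33 FPKM (counts scaled by transcript length and library depth) in WT baseline libraries and at 9.25, 16.6 and 10.3 in those labelled Tet2-/- at baseline. After IR it was at 9.34, 3.97 and 3.86 in WT libraries and at 2.64, 3.20 and 1.76 in those labelled Tet2-/-. Its transcript thus did not mark the label at baseline, and the part of Tet2 that the allele lacks is not given in the sources used here, so groups are called by their labels.

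Library totals ran from 51007366 to 107969888 counts, and the lowest count of any member in any library was 88, so all 77 members passed the filter for low counts in every comparison. The kidney injury marker Havcr1 averaged 11.9 and 10.8 FPKM in the WT and Tet2-/- labelled baseline groups and 481 and 984 FPKM after IR. The 14 proximal tubule markers summed to 6572 to 8145 FPKM in baseline libraries, 3905 to 4790 in WT IR libraries and 1379 to 2375 in IR libraries labelled Tet2-/-. The 7 neutrophil markers summed to 0.609 to 2.78 FPKM at baseline, 4.03 to 9.44 in WT IR libraries and 75.1 to 133 in IR libraries labelled Tet2-/-. In bulk kidney RNA, fewer cells of a type and less RNA per cell cannot be told apart.

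The members lay on 17 chromosomes, and 27 of the 77 (35.1%) had another gene starting within 1000 bases on the opposite strand, against 12.2% of 16741 genes tested. One such pair was made of members on both sides, Mrpl46 and Mrps11 on chromosome 7, of which the first encodes a large and the second a small subunit protein. The 41 bases between their transcript starts (mm9, chr7:85927976-85928016, plus strand, the direction of Mrps11) are shown because they separate the starts of the 2 rows used here. Other annotated transcripts of these genes overlap.
Mrpl46-Mrps11 gap: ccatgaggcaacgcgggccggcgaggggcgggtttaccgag

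RefSeq promoter windows of 300 bases (250 before and 50 after the start, from the GRCm38.p6 table) were matched for 68 members and found unchanged in mm9. A member's window was the one nearest the start of its row. For the shares over all genes, the first window listed for each gene was taken, and what this difference adds was not tested. The motif CCGGAAG, which ETS factors such as the nuclear respiratory factor GABP bind, stood in 24 of the 68 (35.3%), against 15.4% of 12343 promoters of genes tested. TGCGCA, the core of the motif of NRF1, stood in 20 (29.4%, against 12.8%). ATGGCGG, of YY1, stood in 13 (19.1%, against 7.10%), and CACGTG, the E-box of MYC and related factors, in 5 (7.35%, against 9.54%). Both strands were searched, matches of different motifs may overlap, and 46 of the 68 held at least 1 of the 4 motifs, against 36.5% of all.

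The 250 bases before the start are shown for the member with the clearest difference between the genotypes in its IR effect (Mrps36), for another that fell (Mrpl34) and for a pair that rose (Mrpl52 and Mrps18b), to set promoters of opposite responses side by side. Capitals mark matches to the 4 motifs on either strand, and all are written in the direction of the gene. The mm9 positions are chr13:101514615-101514864 (minus strand) for Mrps36, chr8:73988575-73988824 (plus strand) for Mrpl34, chr14:55045496-55045745 (plus strand) for Mrpl52 and chr17:36053386-36053635 (minus strand) for Mrps18b.
Mrps36 promoter: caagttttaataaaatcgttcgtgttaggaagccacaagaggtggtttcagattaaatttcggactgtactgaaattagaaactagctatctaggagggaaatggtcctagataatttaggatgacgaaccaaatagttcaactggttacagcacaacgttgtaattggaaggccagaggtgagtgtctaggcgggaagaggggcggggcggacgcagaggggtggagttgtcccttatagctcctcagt
Mrpl34 promoter: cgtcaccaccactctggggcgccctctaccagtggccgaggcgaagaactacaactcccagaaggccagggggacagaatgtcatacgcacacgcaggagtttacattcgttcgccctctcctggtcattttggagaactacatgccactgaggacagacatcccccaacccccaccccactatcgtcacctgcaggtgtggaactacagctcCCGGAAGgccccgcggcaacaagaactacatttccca
Mrpl52 promoter: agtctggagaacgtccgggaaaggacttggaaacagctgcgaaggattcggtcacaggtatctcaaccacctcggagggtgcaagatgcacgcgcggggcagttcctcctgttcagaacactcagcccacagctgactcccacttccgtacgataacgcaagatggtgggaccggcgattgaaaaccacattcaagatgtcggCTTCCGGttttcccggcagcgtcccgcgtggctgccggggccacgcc
Mrps18b promoter: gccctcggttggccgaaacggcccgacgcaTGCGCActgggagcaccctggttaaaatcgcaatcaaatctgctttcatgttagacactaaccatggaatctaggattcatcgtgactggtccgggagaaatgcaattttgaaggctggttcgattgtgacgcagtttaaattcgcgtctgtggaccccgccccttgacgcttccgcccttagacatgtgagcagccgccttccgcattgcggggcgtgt
The ETS motif stood in the promoter of Mrpl34, which fell after IR in kidneys labelled Tet2-/-, and in that of Mrpl52, which rose. The Mrps36 stretch held none of the 4 motifs, and that of Mrps18b held the NRF1 core. In the whole 300 bases, the ETS motif also stood in Mrps18b and Mrpl33, which rose, and in Mrps21 and Mrps33, which fell, while Mrpl28 and Mrpl42, which fell, held none of the 4.

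Levels differed widely among the members. By mean FPKM over the 12 libraries, Mrpl12 (226), Mrps21 (143), Mrps6 (130.3), Mrpl52 (103) and Mrpl20 (93.2) were highest, and Mrpl23 (2.67), Mrpl19 (4.49), Mrpl1 (5.84), Mrpl15 (7.58) and Mrpl17 (8.32) were lowest. Mrpl12 is the stalk protein that recruits translation factors and also binds the mitochondrial RNA polymerase. It was at 207, 259 and 210.2 FPKM in WT baseline libraries, 227, 221 and 233 in Tet2-/- labelled baseline libraries, 263, 229.9 and 244 in WT IR libraries and 166, 232 and 223 in Tet2-/- labelled IR libraries. Replicate 1 of the last group was the lowest of all, and each of the 4 groups overlapped the others. The value of Mrps6 is uncertain, since 43.8% of its annotated exon bases are shared with Slc5a3 on the same strand, and Mrpl23 has an identical copy of its whole coding sequence elsewhere in mm9.

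Summed over the members, the level per length overlapped between the groups. The sum averaged 3142 ± 431 FPKM in WT baseline libraries, 3407 ± 189 in Tet2-/- labelled baseline libraries, 3296 ± 136 in WT IR libraries and 3212 ± 435 in Tet2-/- labelled IR libraries (SD, n = 3 each). The ratio of the large to the small subunit sum was 1.73 ± 0.029, 1.74 ± 0.038, 1.82 ± 0.032 and 1.79 ± 0.22 in the same order. The WT IR libraries, at 1.791, 1.822 and 1.854, were all above the 6 baseline libraries, at 1.693 to 1.764, also with Mrps30 and Mrps18a counted in the large subunit (1.991 to 2.066, against 1.886 to 1.970). This rests on Mrps21, the highest small subunit member, whose counts are uncertain. With Mrps21 left out of the small subunit sum, the ratios of WT IR and baseline libraries overlap. Within the IR group labelled Tet2-/-, the ratio was 1.56, 1.80 and 2.01, a wider range than in all the other groups together. Part of that range comes from Mrpl33, at 80.9, 111 and 210 FPKM in the same libraries. In counts scaled by depth and by edgeR's TMM factors between libraries, replicate 3 was the highest of this group for 70 of the 77 members. Replicate 1 was the lowest for 56 on that scale. Replicate 3 also had the highest adipocyte markers of all libraries (602 FPKM summed over 8 markers, against 15.05 to 278.7 in the other 11), and whether these moved its values was not tested.

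**Figure D1:**
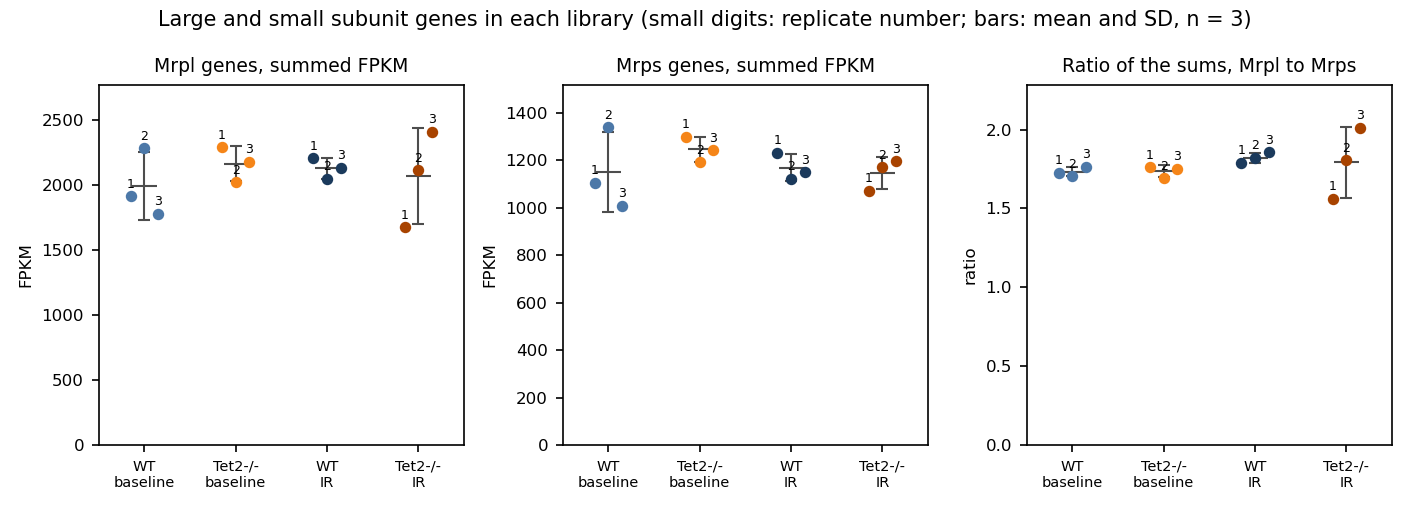
Summed FPKM of the 48 Mrpl genes, of the 29 Mrps genes and the ratio of the sums (vertical axes, from 0) for the 12 libraries by group, with the mean and SD of 3 libraries as bars and replicate numbers beside the points. The groups overlap in both sums. The ratio of the 3 WT IR libraries is above that of all baseline libraries, but not with Mrps21 left out of the small subunit sum. The ratio spreads from 1.56 to 2.01 in the IR libraries labelled Tet2-/-, in part through Mrpl33.

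In WT kidneys the question was what IR did to these genes on the normal genetic background. By edgeR's quasi-likelihood test with Benjamini-Hochberg adjustment, 0 of the 77 members passed an adjusted p of 0.05, against 3.02% of 16015 genes tested (1.88% higher and 1.14% lower). Without adjustment 9 members had a p below 0.05 (22.7% of all genes), and DESeq2 called 2, both higher (2.60%, against 6.88% of all genes higher). The fitted log2 fold changes had a median of 0.04 and ran from -0.47 (Mrps21) to 0.66 (Mrps18b), and the median over all genes was -0.03. Of the 77, 50 lay above 0, as did 47.3% of all genes. The large subunit genes had a median of 0.04 and the small subunit genes of 0.03.

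The members nearest to the threshold in WT kidneys were Mrps18b and Mrpl19. Mrps18b encodes a small subunit protein, one of 3 related to bacterial S18 that mammals keep, and Mrpl19 a large subunit protein with a bacterial counterpart. Mrps18b was at 17.97, 21.71 and 16.29 FPKM in WT baseline libraries and at 29.38, 31.16 and 31.22 after IR, without overlap. Its log2 fold change was 0.66 ± 0.14 (SE) with an adjusted p of 0.0567 by edgeR's quasi-likelihood test, and it was called when the replicate number entered as a block, where 1 member was called higher (1.30%, against 4.12% of all genes) and 0 lower (against 5.18%). Mrpl19 was at 3.418, 3.781 and 3.492 FPKM and then at 5.002, 5.088 and 4.874, again without overlap, for a log2 fold change of 0.42 ± 0.11 (adjusted p = 0.0847 by the same edgeR test). On the scale of TMM-scaled counts, that is counts scaled by depth and by edgeR's factors between libraries, the WT groups did not overlap in 10 members that were higher after IR and 4 that were lower, where 14.8% of all genes were higher and 14.6% lower. In FPKM these were 18 and 1, where 18.9% of all genes were higher and 10.4% lower.

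In kidneys labelled Tet2-/-, the same comparison called more members, as it did more of all genes. Whether the IR effects differ between the genotypes is tested by the interaction below. Of the 77 members, 26 (33.8%) fell and 4 (5.19%) rose, against 20.3% of 16359 genes that fell and 22.9% that rose, and 43.1% called in all. The median log2 fold change of the members was -0.35, against 0.04 over all genes, and 62 of the 77 lay below 0, as did 47.7% of all genes. The 4 that rose were Mrpl33 (1.19), Mrps18b (0.94), Mrpl52 (0.55) and Mrpl19 (0.46). Beside the 8 that fell most, described next, the other 18 ranged from -0.76 (Mrpl44) to -0.38 (Mrpl36). Only Mrpl33, Mrps21 and Mrps36 changed by more than 1 on the log2 scale, against 24.3% of all genes called with such a change. In TMM-scaled counts, all IR libraries were below all baseline libraries in 31 members and above them in 4, where 25.6% of all genes were lower without overlap and 31.2% higher. In FPKM, 18 were lower and 14 higher, where 17.9% of all genes were lower and 40.5% higher.

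**Figure D2:**
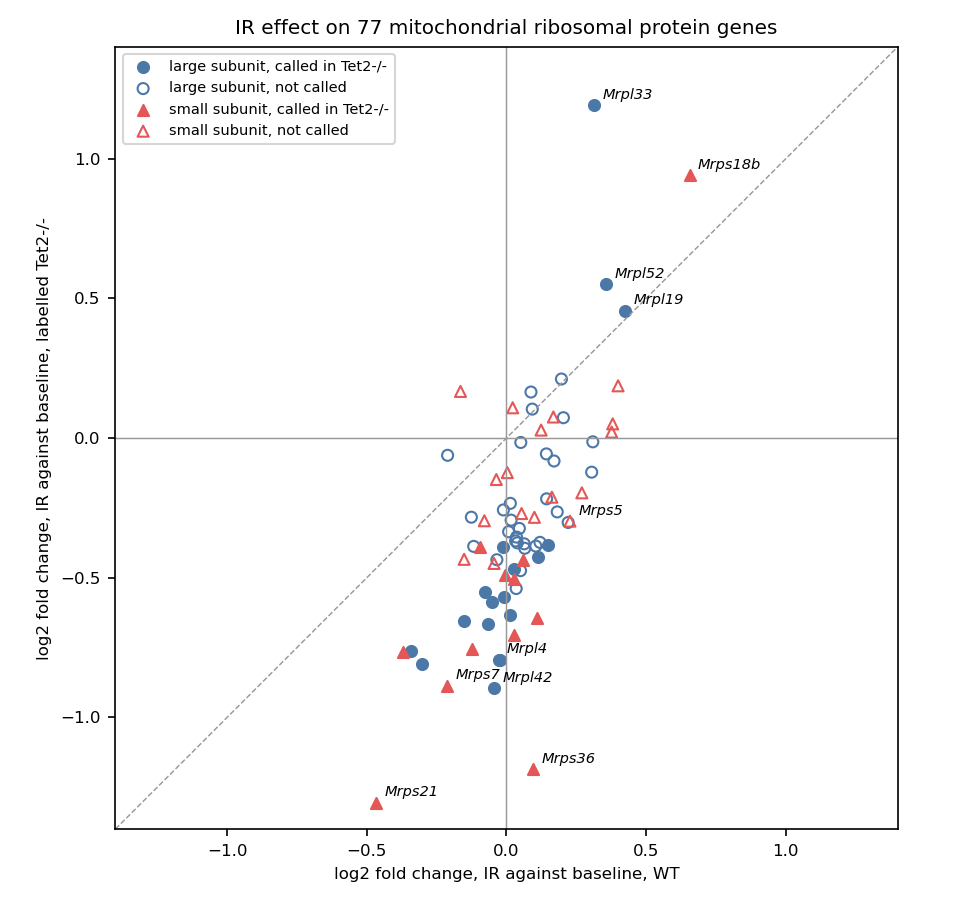
Fitted log2 fold change from baseline to IR of the 77 members in WT kidneys (horizontal axis) and in kidneys labelled Tet2-/- (vertical axis), with circles for large and triangles for small subunit genes, filled where the member was called in the latter. Most points lie below the dashed line of equal change, 36 members are above 0 in WT kidneys alone, and the 4 that rose stand at the upper right.

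Mrps21, a small subunit protein related to bacterial S21, fell most. It was at 187, 188 and 189.6 FPKM in baseline libraries labelled Tet2-/- and at 65.5, 96.9 and 109.6 after IR, with no overlap. Its log2 fold change was -1.31 ± 0.20 (SE, adjusted p = 0.00206 by edgeR's quasi-likelihood test). In WT kidneys it was at 155, 211 and 139.7 FPKM and then at 142, 109.6 and 128, groups that overlapped, with a log2 fold change of -0.47 ± 0.18 and an adjusted p of 0.188. Mrps21 (mm9, chr3:95666575-95674542) has a copy with 97.3% identity over its whole coding sequence elsewhere in the genome, so its counts are uncertain.

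Mrps36 carries a ribosomal name, but its product was later recognised as a part of the 2-oxoglutarate dehydrogenase complex of the citric acid cycle. In kidneys labelled Tet2-/- it went from 12.57, 13.05 and 12.28 FPKM to 5.38, 7.59 and 6.97, and in WT kidneys from 10.91, 11.67 and 9.852 to 15.02, 11.16 and 10.14. The IR libraries labelled Tet2-/- were thus below every library of the other 3 groups, and the WT IR libraries overlapped both baseline groups. The log2 fold change was -1.18 ± 0.19 in the former (adjusted p = 0.00237, edgeR's quasi-likelihood test) and 0.10 ± 0.18 in WT kidneys. Of the other genes of that complex, Ogdh fell with a log2 fold change of -0.86 (edgeR's adjusted p = 0.00312) and Dld with -0.46 (0.0366), while Dlst was at -0.47 (0.0514). Mrps36 (mm9, chr13:101505895-101514614) has 4 near-identical copies elsewhere in mm9 (at least 95% identity over at least 50% of its coding sequence), so its counts are uncertain.

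Of the large subunit proteins, Mrpl42, which bacteria lack, went from 98.7, 89.1 and 86.8 FPKM to 43.1, 71.3 and 62.4 in kidneys labelled Tet2-/-. Mrpl4, a protein with a bacterial counterpart, went from 71.2, 64.7 and 66.3 to 41.0, 46.9 and 51.1. All IR libraries were below all baseline libraries for both. The log2 fold changes were -0.90 ± 0.18 (Mrpl42, adjusted p = 0.00612) and -0.79 ± 0.14 (Mrpl4, adjusted p = 0.00349) by edgeR's quasi-likelihood test. In WT kidneys Mrpl42 was at 80.3, 89.9 and 77.6 FPKM and then at 85.7, 79.0 and 85.4, and Mrpl4 at 58.4, 60.7 and 52.7 and then at 67.5, 54.1 and 54.4. These WT groups overlapped. Mrpl42 (mm9, chr10:94943440-94964561) has 1 near-identical copy in the genome and Mrpl4 (chr9:20807181-20813281) has none by these limits.

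Mrpl28 and Mrpl34, large subunit proteins with bacterial counterparts, fell with log2 fold changes of -0.81 ± 0.19 and -0.80 ± 0.20 (adjusted p = 0.0117 and 0.0161, edgeR's quasi-likelihood test). Mrpl28 went from 77.7, 63.7 and 71.3 FPKM to 36.0, 52.9 and 55.7 and Mrpl34 from 93.0, 77.9 and 84.1 to 41.3, 65.9 and 68.0 in kidneys labelled Tet2-/-, without overlap. Replicate 1 after IR was lowest in both, and Mrpl34 was no longer called without baseline replicate 1 or with limma on FPKM.

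Among small subunit proteins, Mrps7, on which the assembly of the head of the subunit begins, fell by 0.89 ± 0.17 on the log2 scale (adjusted p = 0.00499, edgeR's quasi-likelihood test). It went from 99.3, 85.0 and 87.5 FPKM to 46.4, 63.4 and 65.4 in kidneys labelled Tet2-/-. Mrps33, which bacteria lack, went from 15.25, 15.36 and 14.998 to 8.601, 11.43 and 11.96 and fell by 0.77 ± 0.17 (adjusted p = 0.00945, same test). The groups did not overlap in either gene. In WT kidneys Mrps33 was at 12.95, 15.48 and 11.58 FPKM at baseline and at 10.99, 10.55 and 10.68 after IR, with every IR library below every baseline library, and its adjusted p was 0.203. Mrps33 has a copy with 99.7% identity over its whole coding sequence elsewhere in mm9, and exons of Mrps7 overlap those of Gga3 and Mif4gd on the opposite strand. The strand setting of the counting is not given in the sources used here.

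The 4 members that rose did not share these low IR values. Mrpl33, a small protein of the large subunit, was at 52.4, 44.2 and 53.2 FPKM at baseline and at 80.9, 111 and 210.3 after IR in kidneys labelled Tet2-/-. Mrps18b went from 18.6, 16.6 and 20.5 to 44.2, 35.4 and 47.6, and Mrpl52, which bacteria lack, from 94.3, 76.4 and 86.4 to 111, 166 and 173. Mrpl19 went from 3.456, 3.639 and 3.597 to 5.249, 6.415 and 5.896. In each of the 4, all IR libraries were above all baseline libraries, and Mrpl33 spread most after IR, with replicate 3 far above the others. Their adjusted p values by edgeR's quasi-likelihood test were 0.0287, 0.00515, 0.0481 and 0.0183.

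These rises differed in how firmly they held. Mrps18b was called in all 17 alternative fits of this comparison, Mrpl33 in 14, Mrpl19 in 12 and Mrpl52 in 10. The calls of Mrpl33, Mrpl19 and Mrpl52 were lost without any 1 of the 3 baseline libraries, and that of Mrpl52 also without IR replicate 2 or 3. Mrps18b has a copy of 54.6% of its coding sequence with 99.8% identity elsewhere in mm9 and shares 30.5% of its exon bases with Gm16279 on the opposite strand. Mrpl33 has a copy of 59.3% of its coding sequence, and Mrpl19 shares 36% of its exon bases with AW146020 on the opposite strand. Mrpl52 had neither.

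**Figure D3:**
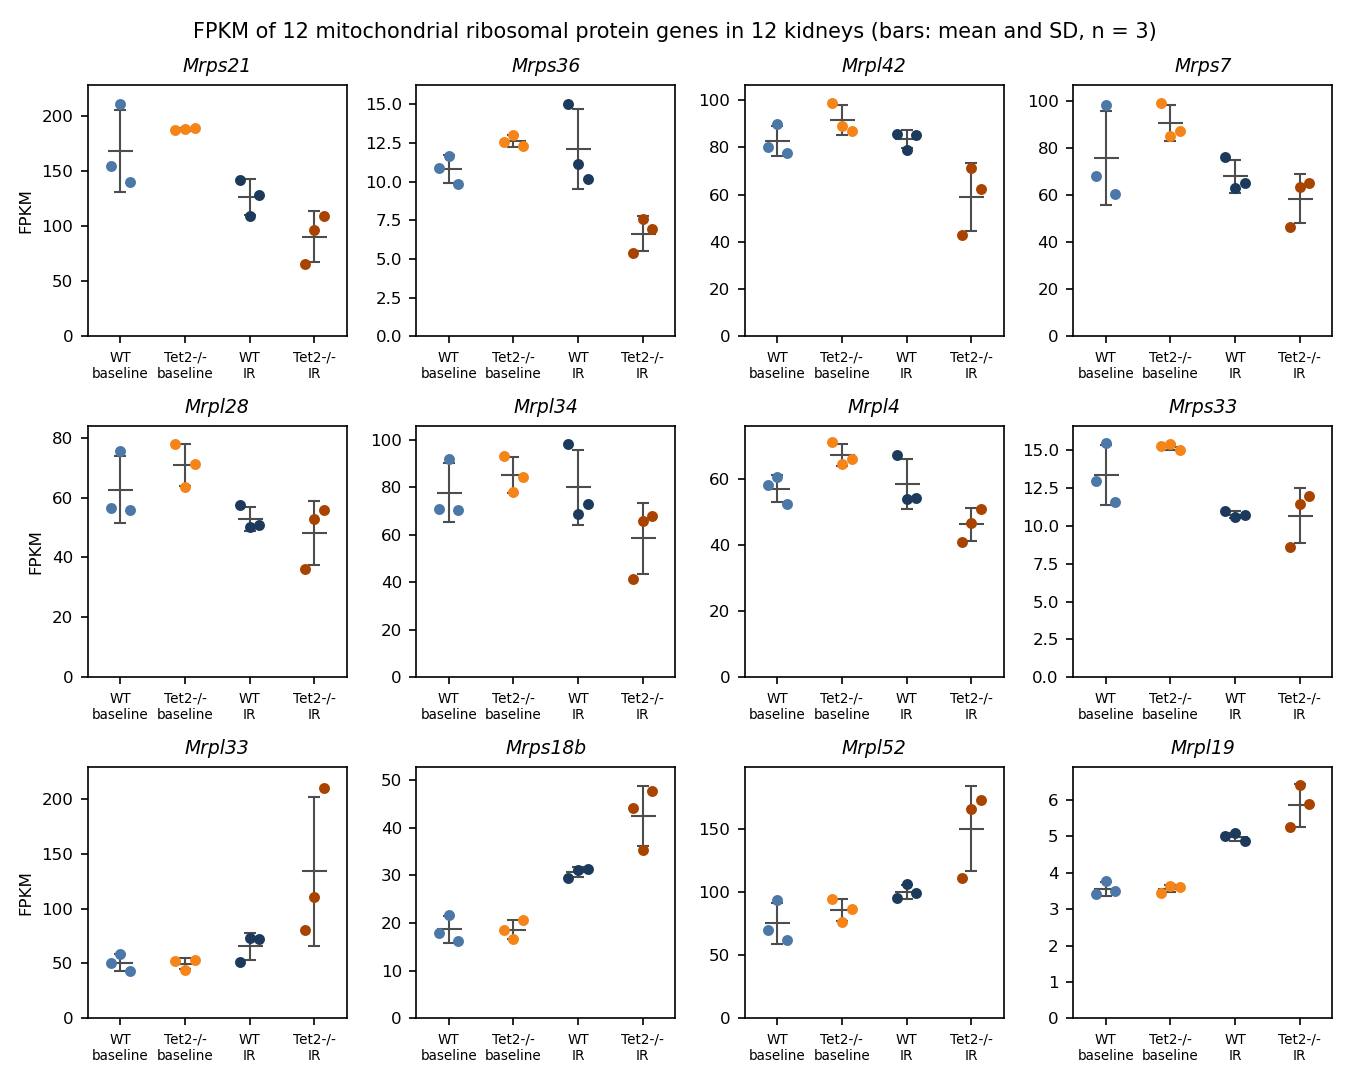
FPKM (vertical axes, from 0) of the 8 members that fell most and the 4 that rose after IR in kidneys labelled Tet2-/-, with a point for each of the 12 libraries and the mean and SD of 3 libraries as bars. In the first 8 panels the IR libraries labelled Tet2-/- lie below their baseline libraries, and for the last 4 genes they are higher.

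The subunits moved alike in the median. Of the 48 large subunit genes 15 fell and 3 rose (median log2 fold change -0.37), and of the 29 small subunit genes 11 fell and 1 rose (median -0.30), where 20.3% of all genes fell, 22.9% rose and their median was 0.04. With Mrps30 and Mrps18a counted in the large subunit, where their proteins sit, the medians were -0.36 and -0.30. Of 48 members whose proteins have a bacterial counterpart 18 fell and 3 rose (median -0.37), and of 28 that bacteria lack 7 fell and 1 rose (median -0.31), against the same shares of all genes. The difference between these classes was not tested.

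By role, members that fell and members with values near 0 stood side by side. At the stalk, which brings in the translation factors, Mrpl12, Mrpl10 and Mrpl11 had log2 fold changes of -0.39, -0.44 and -0.29 in kidneys labelled Tet2-/- and none passed the test. At the exit of the nascent protein, Mrpl24 fell (-0.66, edgeR's adjusted p = 0.0117), while Mrpl23 was at -0.06 and Mrpl45, which attaches the ribosome to the inner membrane, at 0.16. Mrpl44, which has a fold like RNase III, fell (-0.76, edgeR's adjusted p = 0.00313). Mrpl3, near the centre of peptide bond formation, was at -0.02, Mrpl41, which bacteria lack, at -0.39 and Mrps12, at the decoding centre, at -0.15. None of these 3 passed.

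Mrps2, with a bacterial counterpart, fell (-0.44, edgeR's adjusted p = 0.0226), whereas Mrps5, at the entrance of the mRNA, was at -0.30 and Mrps16 at -0.20. Mrps22 and Mrps34, in which mutations cause human mitochondrial disease as they do in Mrps16, were at 0.19 and -0.27. Mrps34 shares 37.0% of its exon bases with Nme3 on the same strand, and Mrps16 has 2 near-identical copies. Mrps27, a pentatricopeptide repeat protein, was at 0.05 and Mrps30 at 0.08. The 3 relatives of bacterial S18 differed in their values. Mrps18b rose by 0.94 on the log2 scale, while Mrps18a, which sits in the large subunit, was at -0.30 and Mrps18c, the closest to the bacterial protein, at 0.03, and neither passed.

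Mrpl46 and Mrps11, which start 42 bases apart, were at -0.26 and -0.50 in kidneys labelled Tet2-/-. Mrps11 went from 25.7, 23.3 and 24.5 FPKM to 16.1, 22.8 and 22.9 and passed (edgeR's adjusted p = 0.0394), while Mrpl46 went from 34.8, 32.1 and 33.5 to 27.6, 35.1 and 37.0, groups that overlapped. Their exons overlap on opposite strands, so their counts may share reads.

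The share of members that fell, set against that of all genes, depended on the scale. When libraries were scaled by their totals and not by TMM, 13 members fell (16.88%, against 14.05% of all genes) and 6 rose (7.79%, against 32.25%). Of those called, 68.4% were lower against 86.7% with TMM, and the median of all genes moved from 0.04 to 0.27, from which the members' median differed by -0.41 (-0.40 with TMM). On log2(FPKM + 1) with limma, 10 fell (12.99%, against 13.39% of all genes) and 7 rose (9.09%, against 31.08%). The members' transcripts are short, with a median of 1044 bases against 2117 over all symbols. In the main fit, members of at least 1000 bases had a median log2 fold change of -0.34, against 0.06 over all genes of that length. Shorter members had -0.36, against -0.15. When each library's trend with transcript length was taken out, 17 fell (22.08%, against 21.02% of all genes) and 4 rose, and the distance of the members' median to that of all genes went from -0.40 to -0.21. In these 3 fits the share that fell was thus near that of all genes, while the share that rose stayed below that of all genes in the main fit and in each of its alternatives.

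Without IR replicate 3, 49 members fell (63.64%, against 21.02% of all genes) and 3 rose, and leaving out another library gave 13 to 18 that fell (16.88% to 23.38%, against 13.73% to 18.83% of all genes). The nearest were 19.48% against 18.83% without IR replicate 2 and 16.88% against 15.14% without baseline replicate 1. The 13 members called in every fit without 1 library were Mrpl4, Mrpl13, Mrpl24, Mrpl28, Mrpl39, Mrpl42, Mrpl44, Mrps7, Mrps15, Mrps18b, Mrps21, Mrps33 and Mrps36. The matching share of all genes is not given here, so these 13 are a list and not a comparison.

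Of 60 members with no near-identical copy found 21 fell and 2 rose, and of 40 with neither such a copy nor exons shared with another gene 15 fell and 1 rose, where 20.3% of all genes fell and 22.9% rose. Mrpl57, absent from the annotation searched, could not be checked for either and is counted in both.

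At baseline the question was whether the genotypes differ without injury. By edgeR's quasi-likelihood test 0 of the 77 members were called, against 0.0124% of 16086 genes (2 genes). At an unadjusted p under 0.05, 5 members passed (11.8% of all genes), and DESeq2 called 0, where it called 0.516% of all genes higher and 2.72% lower. In TMM-scaled counts, WT baseline replicate 2 was the highest library of its group for 60 of the 77 members and replicate 3 the lowest for 56. Without replicate 2, 37 members passed unadjusted (against 21.16% of all genes) and 0 adjusted. The fitted differences were small and lay mostly on 1 side, with 73 of the 77 members higher in libraries labelled Tet2-/-, where 50.6% of all genes were. Their median was 0.19, against 0.00 over all genes, with 0.20 in the large and 0.19 in the small subunit.

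In TMM-scaled counts, 15 members had every library labelled Tet2-/- above every WT library and 0 the reverse, where 6.86% of all genes were higher without overlap and 11.8% lower. In FPKM these were 5 and 0, where 3.06% of all genes were higher and 16.5% lower. Mrpl4 was at 58.4, 60.7 and 52.7 FPKM in WT baseline libraries and at 71.2, 64.7 and 66.3 in those labelled Tet2-/-, a log2 difference of 0.33 ± 0.10 with an adjusted p of 0.314 by edgeR's quasi-likelihood test. Transcripts shorter than 1000 bases had a median difference of 0.17 over all genes tested and 0.22 over the members. From 1000 bases on, these medians were -0.01 and 0.18. With the trend with length taken out, the members' median went from 0.19 to 0.09. Cytosolic ribosomal protein genes and oxidative phosphorylation genes had medians of 0.19 and 0.24 in the same comparison. The 6 adipocyte markers tested had a median of -5.17. The 8 on the list summed to 59.8, 138 and 279 FPKM in WT baseline libraries and to 38.7 to 72.4 in those labelled Tet2-/-. Whether these moved the members' values was not tested.

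After IR the question was whether the genotypes differ once injured. Only Mrps36 was called, lower in IR libraries labelled Tet2-/-, with a log2 difference of -0.96 ± 0.23 and an adjusted p of 0.0455 by edgeR's quasi-likelihood test, against 9.68% of 16186 genes (3.51% higher and 6.17% lower). That call was lost whenever any 1 of the 6 libraries was left out, and its log2 difference ran from -1.05 to -0.77 over the 16 alternatives. Next came Mrps5, at 24.11, 23.46 and 22.21 FPKM in WT IR libraries and 18.61, 19.49 and 17.97 in those labelled Tet2-/-, which did not overlap. Its log2 difference was -0.41 ± 0.10 and its adjusted p 0.0518 by the same edgeR test.

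The members' median difference after IR was -0.19, against 0.04 over all genes, with -0.20 in the large and -0.15 in the small subunit. It was -0.07 without IR replicate 1 labelled Tet2-/- and -0.33 without replicate 3. With library totals it was -0.09 (0.14 over all genes) and with limma on log2(FPKM + 1) -0.10 (0.07 over all genes). Of the 77, 64 lay below 0, as did 46.6% of all genes. In TMM-scaled counts 17 members had every IR library labelled Tet2-/- below every WT IR library and 0 the reverse, where 18.9% of all genes were lower without overlap and 17.3% higher. In FPKM, 13 were lower and 4 higher, where 14.6% of all genes were lower and 22% higher. 

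Whether the IR effect itself differed between the genotypes was tested by the interaction over all 12 libraries. It was called for 4 of the 77 members, all with a lower IR effect in kidneys labelled Tet2-/-, against 9.18% of 16741 genes (3.79% higher and 5.39% lower). These were Mrps36 (-1.24 ± 0.24, adjusted p = 0.012), Mrpl42 (-0.81 ± 0.21, 0.0382), Mrpl4 (-0.73 ± 0.18, 0.0309) and Mrps5 (-0.48 ± 0.13, 0.0467) by edgeR's quasi-likelihood test. Mrps36, Mrpl42 and Mrps5 have near-identical copies in the genome. Mrps5 was at 19.16, 18.14 and 19.75 FPKM in WT baseline libraries and 17.95, 20.07 and 19.55 in those labelled Tet2-/-, groups that overlapped, beside its values after IR given above. With the replicate number as a block, 2 members were called, Mrps36 and Mrpl4. The median over the members was -0.36, against 0.10 over all genes, and 67 of the 77 were below 0, as were 43.2% of all genes. For the other 73 members the difference between the IR effects did not pass the test. Without IR replicate 3 labelled Tet2-/-, 15 members were called lower (19.48%, against 6.09% of all genes), and without another library between 1 and 6 (1.30% to 7.79%, against 2.86% to 6.27%).

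Across the 77 members, the IR effects in the 2 genotypes, which rest on separate libraries, had a Pearson correlation of 0.698, given as a description since genes are not independent replicates. Both effects were above 0 in 14 members and below 0 in 26, that in WT kidneys alone was above 0 in 36, and that in kidneys labelled Tet2-/- alone in 1, Mrps6.

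The other genes of mitochondrial gene expression were read from hand-written lists. In kidneys labelled Tet2-/-, IR lowered 3 of 6 mitochondrial ribosomal proteins that have other names and raised 0, among them Dap3 of the small subunit (-0.71). Of 16 mitochondrial translation factors 6 fell and 0 rose, led by Gfm2, a recycling factor (-1.06), and Tufm, the elongation factor that brings in aminoacyl-tRNA (-0.95). Of 24 assembly factors of the ribosome 5 fell and 1 rose, with Mterf3 at -0.58 and Rpusd4 at 0.49. Of 20 genes that charge mitochondrial tRNAs 8 fell and 2 rose, with Gatb, a subunit of the amidotransferase that makes glutaminyl-tRNA, at -1.49 and Mars2 at 0.87. Of 13 genes for transcription and upkeep of mitochondrial DNA 6 fell and 1 rose, with Polg2 at -0.87, Polrmt at -0.69 and Polg at 0.34. All these calls are by edgeR's quasi-likelihood test at an adjusted p under 0.05, against the 20.3% of all genes that fell and the 22.9% that rose.

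Of 10 regulators of mitochondrial biogenesis, 3 fell and 2 rose in kidneys labelled Tet2-/- (30% and 20%, against 20.3% and 22.9% of all genes). The median of the list was -0.003, against 0.04 over all genes. Perm1 (-2.17), the nuclear receptor Esrra (-1.17) and the coactivator Ppargc1a (-0.69) fell, and Myc (2.92) and Pprc1, a relative of Ppargc1a (1.33), rose. In WT kidneys Myc alone of these mitochondrial lists was called, with a log2 fold change of 2.44 (edgeR's adjusted p = 0.0428).

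The members stood between the oxidative phosphorylation genes and the cytosolic ribosomal protein genes. In kidneys labelled Tet2-/-, 69 of 75 oxidative phosphorylation genes fell and 0 rose (median -0.95). Of 80 cytosolic ribosomal protein genes 5 fell and 12 rose (median 0.25), where 20.3% of all genes fell and 22.9% rose. In the comparison of genotypes after IR, 8 of the 75 (10.7%) and 0 of the 80 were lower, against 6.17% of all genes. Higher were 0 and 3 (3.75%), against 3.51% of all genes. The interaction was called lower for 16 of the 75 (21.3%) and for 0 of the 80, against 5.39% of all genes. The sums of proximal tubule and neutrophil markers given above moved with the same groups as these counts. In kidneys labelled Tet2-/-, 5 of 5 podocyte markers rose after IR (summing to 42.9 to 87.8 FPKM, against 13.7 to 19.1 at baseline), and 2 of 5 thick ascending limb and 2 of 4 distal convoluted tubule markers fell. The part of these markers in the members' values was not tested.

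**Figure D4:**
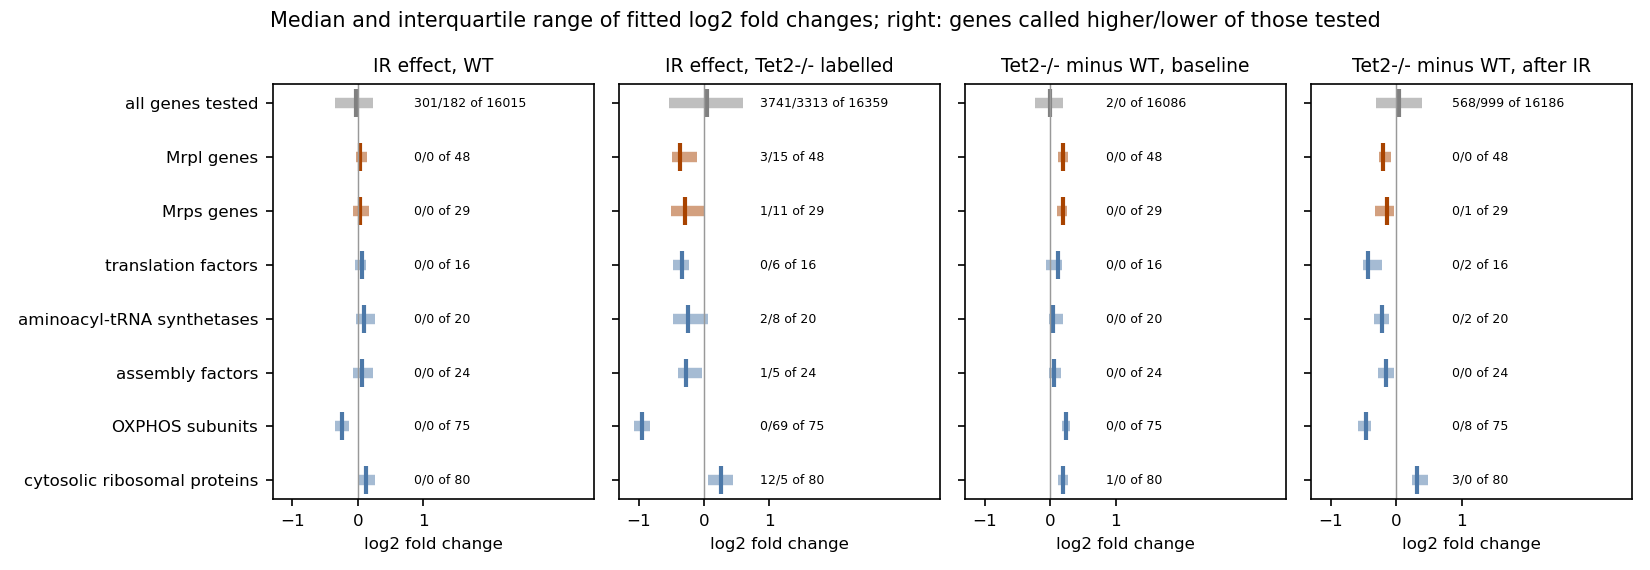
Median (tick) and interquartile range (bar) of fitted log2 fold changes (horizontal axes) for all genes tested, the Mrpl and Mrps genes and 5 other lists in 4 comparisons, with the number of genes called higher/lower of those tested at the right. In kidneys labelled Tet2-/- after IR, Mrpl and Mrps genes have medians of -0.37 and -0.30, between those of oxidative phosphorylation (-0.95) and cytosolic ribosomal protein genes (0.25).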

How the data were processed

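Per the labels and the study's methods, RNA-seq reads of mouse kidney were aligned to mm9 with STAR and counted with HOMER by the authors, whose versions are not given in the sources used here. The authors deposited raw read counts per RefSeq transcript and FPKM, for 34600 rows. The deposited counts come in steps of 0.5 (38.7% not whole), so they were handled like expected counts and rounded. The row with the highest total stood for each symbol.

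Each comparison of 3 against 3 libraries was fitted with edgeR 4.0.16 (R 4.3.3; TMM, filterByExpr, quasi-likelihood F test, two-sided), the interaction over all 12, with Benjamini-Hochberg adjustment over all genes tested and a call at an adjusted p under 0.05. Depth ran from 51007366 to 107969888 counts a library. Alternatives were DESeq2 1.42.0, its size factors, library sizes alone, no filter, 1 fit of all libraries, limma 3.58.1 on log2(FPKM + 1) and log2(FPKM + 0.1), a replicate block, summed rows, a fold threshold, each library left out, and a trend with transcript length taken out. The last with the block was added after seeing the data. The tests were tried on simulated data. Copies were sought with BLAST 2.17.0.

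Same-numbered samples are different mice. Their deviations from the group means correlated at 0.349, 0.349 and 0.344 between WT baseline and IR and at 0.120, 0.350 and 0.202 between the groups labelled Tet2-/-, so the numbers were treated as pairing baseline with IR, from these correlations alone. The main fits have no block, and the block is an alternative.

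Named genes were, per comparison, up to 8 called members in each direction by size of change, members with a listed role, the 5 highest and 5 lowest by FPKM, check genes, and up to 4 called genes per other mitochondrial list. The oxidative phosphorylation and cytosolic ribosomal genes are given by counts. The members and lists were chosen with earlier results of these data known. The split by bacterial counterpart, the genes of the 2-oxoglutarate dehydrogenase complex, and Mrpl46 with its neighbour were taken up after values were seen.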

Additional observations from a re-analysis of the deposited data

Results flagged for a closer look

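The IR effect differed between the genotypes, by the interaction in edgeR's quasi-likelihood test, in 4 members (5.19% of the 77, against 5.39% of all genes lower and 9.18% called in all). The log2 differences of the effects (labelled Tet2-/- minus WT) were -1.24 for Mrps36, -0.81 for Mrpl42, -0.73 for Mrpl4 and -0.48 for Mrps5. Mrps36 was called in 21 of 21 alternatives, Mrpl4 in 11, Mrpl42 in 10 and Mrps5 in 4. When each of the 12 libraries was left out in turn, the call was lost in 0 fits for Mrps36, 7 for Mrpl42, 8 for Mrpl4 and 11 for Mrps5.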

How the results depend on the processing

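No direction of a called member reversed. For the IR effect in WT kidneys (0 members called), DESeq2 and 1 fit of all 12 libraries called 2 higher (2.60%, against 6.88% and 3.94% of all genes). Both limma fits, the replicate block and the length trend taken out called 1 higher (1.30%, against 2.17% to 4.12% of all genes). The replicate block with the length trend taken out called 2 higher (2.60%, against 4.30%). Leaving out a library called 0, and moved the members' median (0.04) to between -0.02 without baseline replicate 3 and 0.17 without baseline replicate 2, with 0.13 without IR replicate 2. For kidneys labelled Tet2-/- (4 higher, 26 lower), limma called 7 higher with either pseudocount and 10 and 11 lower, library sizes alone 13 lower, and the length trend taken out 17 lower, with the replicate block or without. A log2 change over 1 left 1 higher and 2 lower. Leaving out 1 library gave 1 to 4 higher and 13 to 49 lower, the 49 without IR replicate 3, where 29 of the 30 calls were shared, and 1 higher without any 1 of the baseline replicates.

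For the genotypes at baseline, 0 members were called in every alternative, and the members' median (0.19) ran from 0.09 with the length trend taken out to 0.28 without WT baseline replicate 2. For the genotypes after IR (1 lower), DESeq2 called 5 lower (6.49%, against 11.35% of all genes), 1 fit of all libraries 7 (9.09%, against 10.32%), and library sizes alone, limma on log2(FPKM + 1), the replicate block and a log2 change over 1 gave 0. The length trend taken out gave 1 higher, and leaving out 1 library 0 to 1 lower. For the interaction (4 lower), DESeq2 called 9 (11.69%, against 9.50% of all genes lower), library sizes alone and limma on log2(FPKM + 0.1) 1 (1.30%, against 4.18% and 4.07%), limma on log2(FPKM + 1) and the replicate block 2 (2.60%, against 3.56% and 6.43%), a log2 change over 1 left 1, and leaving out 1 library gave 1 to 15. The causes were not tested. The replicate block changed no other count of members called at an adjusted p by over 1.5 times, and at baseline it moved the number with an unadjusted p under 0.05 from 5 to 3. Over all genes it moved the calls of the IR effect in WT kidneys from 301 higher and 182 lower to 659 and 829, and those of the interaction that were higher from 634 to 1024. Between genotypes, same-numbered samples correlated at -0.173, -0.150 and 0.052 at baseline and at -0.0002, 0.206 and 0.303 after IR and were not treated as pairs.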

Other observations

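The spread among libraries of a group differed between groups. The median coefficient of variation of the members' FPKM was 12.6% in WT baseline libraries, 6.93% in Tet2-/- labelled baseline libraries, 6.72% in WT IR libraries and 15.9% in IR libraries labelled Tet2-/-. The highest single value was that of Mrpl33 in the last group (50.5%).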
